A study of Saccharomyces cerevisiae with 24 samples.

Results

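The histone genes of budding yeast were followed through a sulfite experiment with 4 alleles of *FZF1*, the gene of a zinc finger activator that switches on sulfite export. The 10 members were the genes whose symbol in the probe annotation is that of a histone, *HTA1*, *HTA2*, *HTB1*, *HTB2*, *HHT1*, *HHT2*, *HHF1*, *HHF2*, *HTZ1* and *HHO1*. They are 10 of the 4073 named genes on the array, with 20 features, and all 10 had both features measured on all 24 arrays and passed the filter on missing values. The members were chosen by name and not by their values.

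A nucleosome wraps DNA around an octamer of the core histones H2A, H2B, H3 and H4. In *S. cerevisiae* each core histone has a pair of genes, and the genes lie in divergent pairs that share a promoter region, *HTA1* with *HTB1* on chromosome IV, *HTA2* with *HTB2* and *HHT1* with *HHF1* on chromosome II, and *HHT2* with *HHF2* on chromosome XIV. Core histone transcripts, which are polyadenylated in yeast, accumulate in S phase, when new chromatin is made, and the HIR complex represses every pair except *HTA2* with *HTB2* outside S phase. *HTZ1* on chromosome XV encodes the H2A variant that the Swr1 complex places at promoters, and *HHO1* on chromosome XVI encodes the linker histone H1.

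All strains were mating type a derivatives of the *S. cerevisiae* laboratory strain S288c that lacked their own *FZF1* and carried 1 allele at the *URA3* locus. The alleles were the *S. paradoxus* allele (Spar), a chimera with the *S. cerevisiae* 5′ noncoding region and the *S. paradoxus* coding region (CP), the reverse chimera (PC), and the *S. cerevisiae* allele (Scer). Cultures grown in YPD acidified with tartaric acid were sampled 15 min after sodium sulfite at 1 mM and at 0 min, just before it, with 3 arrays for each of the 8 groups. No culture without sulfite was sampled at 15 min, so the addition of sulfite and the passage of 15 min cannot be told apart. Each array set 1 sample against a pool of all RNA, and every value below is a log2 ratio of sample over pool, centred on the median gene of the array, so that it compares a gene with itself across arrays and never with another gene. The methods describe the 3 replicates of a group as independent, from separate transformants, and both times as samples of the same culture. The labels do not say which number at 15 min shares a culture with which at 0 min, so the fit took each array as an observation.

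The strains were checked on *FZF1*. That its probe reads the *S. cerevisiae* coding region was inferred from the ratios below, as probe sequences were not used. The 12 arrays of alleles with the *S. paradoxus* coding region lay between −5.57 and −2.47, and 11 of the 12 others lay between −0.11 and 2.21. The array labelled Scer 0 min replicate 2 lay at −3.63, with the first set, and values for the Scer response are therefore also given without it. *URA3* stood at 1.20 on that array, against −1.97 and −1.89 on the other Scer arrays at 0 min. A high *URA3* ratio at 0 min was also read on CP replicate 3 (1.34). *SSU1*, the sulfite pump that Fzf1 activates, lay between −0.13 and 1.46 on the arrays at 15 min and between −1.79 and −0.92 on those at 0 min. All 6 a-specific and 4 alpha-specific mating type markers had values on all arrays, but a ratio to the pool gives no level, so the mating type was not tested.

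Of the histone genes, 6 fell and 1 rose 15 min after sulfite, taking the mean response of the 4 alleles, while *HTA2*, *HHF1* and *HHF2* did not pass the test (limma, Benjamini-Hochberg adjusted P under 0.05 over 4071 genes). The 7 of 10 members stand beside 79.1% of all genes called, so most genes on the array moved and the share of histone genes was close to it. In the downward direction 39.6% of all genes were called and in the upward direction 39.5%. The median response was −0.20 for the 10 members and 0.0075 for all genes, and the median size of the response was 0.32 for the members and 0.47 for all genes. The direction differed between the genes of 1 histone, H3, as follows.

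**Figure D1:**
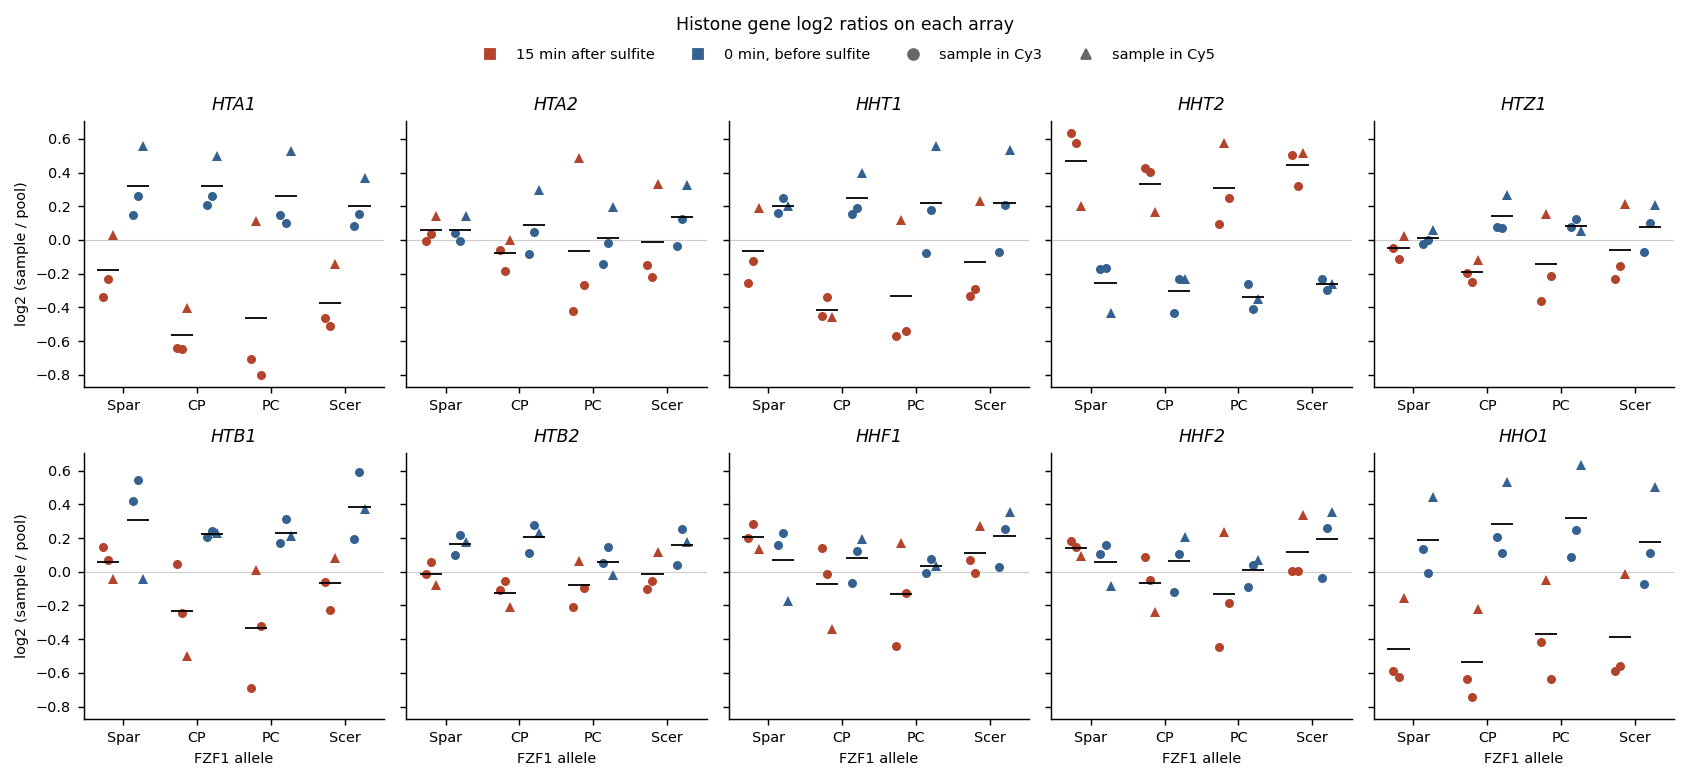
Log2 ratio of sample over pool (y axis) for each histone gene on each of the 24 arrays, by FZF1 allele (x axis), with 15 min left of 0 min for each allele. Points are arrays, triangles are arrays with the sample in Cy5, and horizontal lines are means of 3 arrays. HHT2 is the gene in which all 12 arrays at 15 min lie above all 12 at 0 min, and the triangles stand highest in all 8 groups for HTA1, HTA2 and HHO1.

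*HHT2*, which encodes histone H3, was the only member that rose. In Spar it stood at 0.63, 0.57 and 0.20 at 15 min and at −0.17, −0.16 and −0.44 at 0 min. In CP it stood at 0.43, 0.40 and 0.17 at 15 min and at −0.43, −0.23 and −0.23 at 0 min. In PC the values were 0.10, 0.57 and 0.25 at 15 min and −0.26, −0.41 and −0.35 at 0 min. All arrays at 15 min were thus above all arrays at 0 min in these 3 alleles. The same held for Scer, with 0.51, 0.32 and 0.52 at 15 min and −0.23, −0.29 and −0.26 at 0 min. The mean response was 0.68 ± 0.06 (SE), a 1.60-fold rise (limma adjusted P = 5.72e-09). *HHT2* was the only member whose 12 arrays at 15 min and 12 arrays at 0 min did not overlap, where 38.7% of 4067 genes with complete values did not.

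*HHT1* encodes the same H3 protein from another locus, and it fell. In Spar it stood at −0.26, −0.12 and 0.19 at 15 min and at 0.16, 0.25 and 0.20 at 0 min. In CP it stood at −0.45, −0.34 and −0.46 at 15 min and at 0.16, 0.19 and 0.40 at 0 min. CP was the only allele in which the *HHT1* arrays of the 2 times did not overlap. In PC the values were −0.57, 0.12 and −0.54 at 15 min and −0.08, 0.18 and 0.56 at 0 min. In Scer they were −0.33, −0.29 and 0.23 at 15 min and −0.07, 0.21 and 0.53 at 0 min. In both alleles the high array at 15 min was the one with the sample in Cy5. The mean response was −0.46 ± 0.10 (SE), a 1.37-fold fall (limma adjusted P = 0.00028).

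The H3 genes were therefore set against each other within each array. This comparison, and the other 7 pairs below, were chosen after the values were seen. *HHT2* minus *HHT1* averaged 0.62 ± 0.26 at 15 min and −0.51 ± 0.23 at 0 min (SD, n = 12 arrays each), and the ranges, 0.01 to 0.89 at 15 min and −0.91 to −0.16 at 0 min, did not overlap. The change was 1.14 ± 0.10 (SE), with P = 2e-05 in a two-sided permutation test over arrays, the smallest that 100000 resamples can give, and 5.33e-05 adjusted over the 8 pairs. It was 0.99 in Spar, 1.30 in CP, 1.20 in PC and 1.06 in Scer. On arrays with the sample in Cy3 the change was 1.16 and on those with it in Cy5 it was 1.09. Probe sequences were not used here, so how far a probe for one H3 gene also reads the other was not tested. The same holds for the H2A, H2B and H4 genes below.

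*HTA1*, which encodes histone H2A, fell the most of the core genes. In Spar it stood at −0.34, −0.23 and 0.03 at 15 min and at 0.15, 0.26 and 0.56 at 0 min. In CP it stood at −0.64, −0.64 and −0.40 at 15 min and at 0.21, 0.26 and 0.50 at 0 min. In Scer the values were −0.46, −0.51 and −0.14 at 15 min and 0.08, 0.16 and 0.37 at 0 min. The times did not overlap in those 3 alleles. In PC, with −0.71, 0.11 and −0.80 at 15 min and 0.15, 0.10 and 0.53 at 0 min, they overlapped by the 15 min array with the sample in Cy5. The mean response was −0.67 ± 0.10 (SE), a 1.59-fold fall (limma adjusted P = 2.21e-06).

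*HTA2*, the other H2A gene, did not pass the test. Its arrays ran from −0.42 through a median of −0.03 to 0.49 at 15 min and from −0.14 through 0.05 to 0.33 at 0 min, and overlapped in each allele. Its mean response was −0.10 ± 0.09 (SE, limma adjusted P = 0.329). On the 16 arrays with the sample in Cy3 it was −0.15 (adjusted P = 0.0147), and on the 8 with it in Cy5 it was 0.0023 (adjusted P = 0.987). Without 1 array, PC 15 min replicate 2, it was −0.17 (adjusted P = 0.0386). *HTA1* minus *HTA2* averaged −0.37 ± 0.13 at 15 min and 0.20 ± 0.12 at 0 min (SD, n = 12 arrays each), with no overlap. The change of −0.57 ± 0.05 (SE) had P = 2e-05 by permutation (5.33e-05 adjusted over the 8 pairs), and was −0.56 on Cy3 and −0.59 on Cy5 arrays.

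The H2B genes both fell. *HTB1* ran from −0.69 through a median of −0.05 to 0.15 at 15 min and from −0.04 through 0.24 to 0.59 at 0 min, with a mean response of −0.43 ± 0.09 (SE, limma adjusted P = 0.00011). Its lowest array was PC 15 min replicate 1. *HTB2* ran from −0.21 through −0.07 to 0.12 at 15 min and from −0.02 through 0.16 to 0.28 at 0 min, with a mean response of −0.21 ± 0.05 (SE, limma adjusted P = 0.000547). *HTB2* had the least spread of the core genes, with an SD of 0.10 at 15 min and 0.09 at 0 min (n = 12 arrays each). *HTB1* minus *HTB2* changed by −0.23 ± 0.07 (SE, permutation P = 0.00508, adjusted over the 8 pairs 0.00813), from values that overlapped between the times, and by −0.27 on Cy3 and −0.14 on Cy5 arrays.

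The H4 genes *HHF1* and *HHF2*, which encode identical proteins, gave the smallest responses. *HHF1* ran from −0.44 through a median of 0.10 to 0.28 at 15 min and from −0.17 through 0.10 to 0.35 at 0 min. *HHF2* ran from −0.45 through 0.05 to 0.34 at 15 min and from −0.12 through 0.09 to 0.35 at 0 min. The times overlapped in every allele for both. The mean responses were −0.07 ± 0.07 for *HHF1* and −0.07 ± 0.08 for *HHF2* (SE, limma adjusted P = 0.381 and 0.43). *HHF1* minus *HHF2* differed between the times by −0.0066 ± 0.02 (SE, permutation P = 0.781). How far the probe of an H4 gene also reads its paralog was not tested. Their lowest array was PC 15 min replicate 1, which was also the lowest for *HTB1*, *HHT1*, *HTA2* and *HTZ1*.

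**Figure D2:**
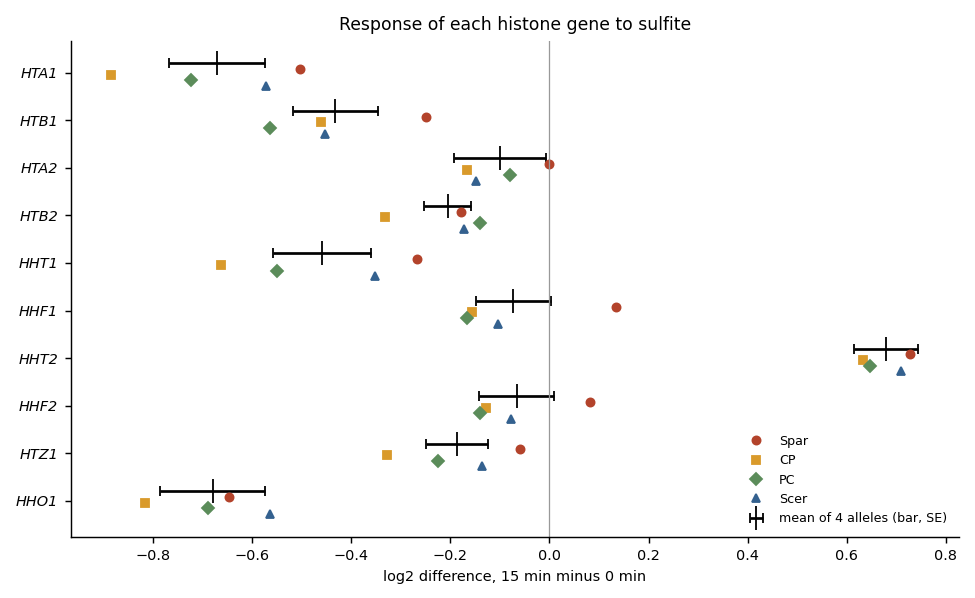
Response to sulfite of each histone gene as the log2 difference of 15 min minus 0 min (x axis). Black bars are the mean of 4 alleles with its standard error, and coloured points are the single alleles. HHT2 stands at 0.68, against −0.46 for HHT1, and the H4 genes stand near 0.

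The linker histone gene *HHO1* fell as far as *HTA1* did. Its arrays ran from −0.74 through a median of −0.57 to −0.01 at 15 min and from −0.07 through 0.17 to 0.63 at 0 min. The arrays at the top of both ranges had the sample in Cy5. Among Cy3 arrays the values were −0.74 to −0.42 at 15 min and −0.07 to 0.25 at 0 min, and among Cy5 arrays −0.22 to −0.01 at 15 min and 0.44 to 0.63 at 0 min, with no overlap within a dye. The mean response was −0.68 ± 0.11 (SE), a 1.60-fold fall (limma adjusted P = 6.13e-06). *HTZ1*, the variant H2A gene, ran from −0.36 through −0.14 to 0.21 at 15 min and from −0.07 through 0.08 to 0.27 at 0 min. Its mean response was −0.19 ± 0.06 (SE, limma adjusted P = 0.00995), with −0.24 on Cy3 arrays (adjusted P = 0.000339) and −0.08 on Cy5 arrays (adjusted P = 0.524).

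Genes that share a promoter region were compared in the same way. *HHT2* minus *HHF2* averaged 0.37 ± 0.13 at 15 min and −0.37 ± 0.13 at 0 min (SD, n = 12 arrays each) and did not overlap. The change was 0.75 ± 0.05 (SE, permutation P = 2e-05, adjusted over the 8 pairs 5.33e-05), so the H3 gene of this pair rose against the H4 gene beside it. At the other H3 and H4 locus the sign was opposite, and *HHT1* minus *HHF1* changed by −0.39 ± 0.08 (SE, permutation P = 0.00016, adjusted 0.00032), with values that overlapped. *HTA1* minus *HTB1* changed by −0.24 ± 0.11 (SE, permutation P = 0.0458), which did not pass after adjustment (0.0611). *HTA1* minus *HTB1* did pass when times were exchanged within the 12 pairs of an allele and a number (exact permutation adjusted P = 0.041), an alternative chosen after seeing the data that left the calls of the other 7 pairs as they were. *HTA2* minus *HTB2* changed by 0.11 ± 0.07 (SE, permutation P = 0.147, adjusted 0.169).

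**Figure D3:**
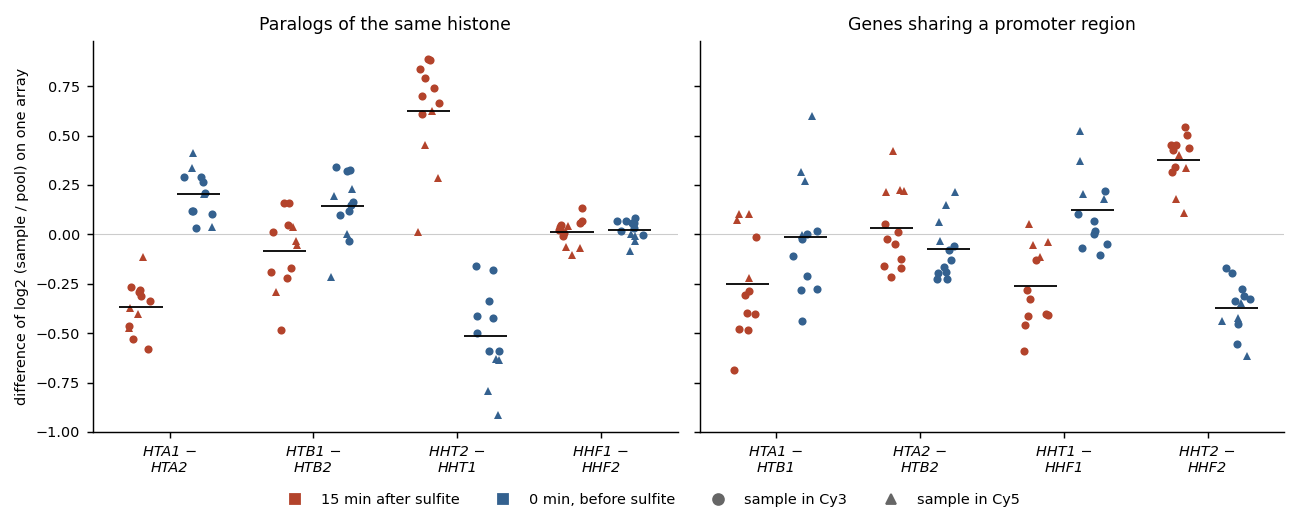
Difference between the log2 ratios of 2 histone genes on the same array (y axis) for paralogs (left) and for genes sharing a promoter region (right), with 15 min left of 0 min. Points are arrays, triangles are arrays with the sample in Cy5, and lines are means of 12 arrays. HHT2 minus HHT1 changed by 1.14 and HHF1 minus HHF2 by −0.0066.

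Across the 24 arrays the patterns of the histone genes did not follow the promoter pairs. The correlations are descriptions over arrays that share the times, the dyes and the pool. *HTA1*, *HHT1* and *HHO1* had r of 0.92 for *HTA1* with *HHT1*, 0.92 for *HTA1* with *HHO1* and 0.87 for *HHT1* with *HHO1*. They did not stand apart, since *HTZ1* had r of 0.87 with *HHT1*, 0.83 with *HTA1* and 0.81 with *HHO1*. *HHF1* and *HHF2* had r of 0.95, and their r with *HTB1* was 0.77 for *HHF1* and 0.72 for *HHF2*. *HHF2* had r of 0.78 with *HTA2*, and *HTB1* had 0.82 with its paralog *HTB2*. *HHT2* had r of −0.81 with *HHO1*, −0.58 with its paralog *HHT1* and 0.10 with *HHF2*, its promoter partner. The promoter partners *HTA1* and *HTB1* had r of 0.70, *HTA2* and *HTB2* 0.54, and *HHT1* and *HHF1* 0.57. The 2 features of a member were close, with r between 0.88 for *HTZ1* and 0.99 for *HHT1*, and both gave responses of the same sign in every member.

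The dye moved with several of these patterns. In the fit with a term for dye, 5 of 10 members read higher with the sample in Cy5, where 53.3% of all genes were called in either direction. The differences of Cy5 minus Cy3 were 0.46 for *HHO1*, 0.38 for *HTA1*, 0.34 for *HHT1*, 0.32 for *HTA2* and 0.18 for *HTZ1* (limma adjusted P from 7.13e-08 to 0.00482). The Cy5 array was the highest of its 3 in 8 of 8 groups for *HTA1*, *HTA2* and *HHO1*, in 7 for *HTZ1* and in 6 for *HHT1*. *HTB1*, *HTB2*, *HHF1*, *HHF2* and *HHT2* did not pass the test for dye, with differences between −0.05 and 0.11. Each group holds 1 Cy5 array and 2 Cy3 arrays, so the mean responses are balanced for dye, and the same 7 members were called with the dye term. Among Cy3 arrays alone, the 8 arrays at 15 min and the 8 at 0 min did not overlap for *HTA1*, *HTB1*, *HHT1*, *HHT2* and *HHO1*, 5 of 10 members beside 48.8% of all genes.

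Taken by allele, *HHT2* rose with each of the 4 alleles, by 0.73 in Spar, 0.63 in CP, 0.65 in PC and 0.71 in Scer (SE 0.13 each, limma adjusted P from 6.74e-05 to 0.000311). Fewer than the 10 members passed in each, and the calls were not the same. In Spar 3 members were called, *HHT2*, *HTA1* (−0.50) and *HHO1* (−0.65), where 59.9% of all genes were. In CP 7 members were called beside 58.6% of all genes, with *HTA1* (−0.88), *HHO1* (−0.82), *HHT1* (−0.66), *HTB1* (−0.46), *HTB2* (−0.33) and *HTZ1* (−0.33) lower. In PC 5 were called beside 57.3%, with *HTA1* (−0.72), *HHO1* (−0.69), *HTB1* (−0.56) and *HHT1* (−0.55) lower. In Scer 4 were called beside 58.3%, with *HTA1* (−0.57), *HHO1* (−0.56) and *HTB1* (−0.45) lower. These counts are not evidence of a difference between alleles, since no member passed the tests of that difference given below.

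Many calls of single alleles other than that of *HHT2* were lost when 1 array was left out, which leaves 2 in a group. Any of several arrays could end a call, often with the response little changed. For *HTB1* in CP it was −0.47 without replicate 1 at 0 min, where the fit of all arrays gave −0.46. In Spar, *HTA1* was lost without replicates 1 or 2 at 15 min or replicate 3 at 0 min (limma adjusted P from 0.0774 to 0.135), and *HHO1* without replicate 2 at 15 min (0.0533) or replicate 3 at 0 min (0.0657). In CP, *HTB1* was lost without any 1 array but replicate 1 at 15 min (0.0504 to 0.135), and *HTZ1* without replicates 1 or 2 at 15 min or replicate 3 at 0 min (0.0648 to 0.119). *HTA1*, *HHT1*, *HTB2* and *HHO1* kept their calls in CP when any 1 array was left out. In PC, *HHT1* was lost without replicates 1 or 3 at 15 min or replicate 3 at 0 min (0.0974 to 0.137), *HHO1* without replicate 3 at 15 min (0.0509) or at 0 min (0.0569), and *HTB1* without replicate 1 at 15 min (0.0665). In Scer, *HTA1* and *HHO1* were lost without replicates 1 or 2 at 15 min or replicate 3 at 0 min (0.0509 to 0.141), and *HTB1* without those or the 0 min replicate 2 whose *FZF1* ratio went against its label (−0.35, adjusted P = 0.123). Without that array *HTA1*, *HHO1* and *HHT2* kept their calls in Scer, with −0.59, −0.60 and 0.69. In the other direction, *HHT1* was gained in Scer without replicate 3 at 15 min (0.0354), *HTZ1* in PC without replicate 2 at 15 min (0.0144), and *HTB1* in Spar without replicate 3 at 0 min (0.0451). Each of these arrays had the sample in Cy5. With all arrays and a dye term, *HHT1* was called in Scer (−0.35, limma adjusted P = 0.0246) and *HTZ1* in PC (−0.225, 0.040). *HTB1* in Spar was not called in that fit (−0.25, 0.193).

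No histone gene passed the limit used for an effect of the *FZF1* allele. For the effect of allele over both times 0 of 10 members were called by limma, and 0 had an unadjusted P under 0.05, where 0.0737% of all genes were called. The smallest adjusted P was 0.999, for *HHF1*. With a dye term in the limma fit the smallest was 0.433, for *HTA1* (unadjusted P = 0.0613), again not past the limit. On the Cy3 arrays alone, several members had an unadjusted limma P under 0.05 for allele. These were *HTA1* (0.0068), *HHT2* (0.013), *HHF1* (0.015), *HTB1* (0.016), *HHF2* (0.024) and *HTA2* (0.047). None of them passed after adjustment, and the smallest adjusted P was 0.081, for *HTA1*. The share of all genes under 0.05 on those arrays is not given here. For the allele by time effect 0 of 10 were called and 0 had an unadjusted P under 0.05, beside 0% of all genes. The study's own form of test, an analysis of variance that counts each feature as an observation with P under 0.01 unadjusted, called 3 members for allele, *HHF1*, *HHF2* and *HTB1*, where it called 12.1% of all genes. On gene means the same model called 0 members for allele and 1.77% of all genes. The paper also estimated a false discovery rate for its own calls by permuting sample labels, which is not given here.

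The full length alleles were compared directly at each time. Spar minus Scer at 15 min was largest for *HTA1*, at 0.19 ± 0.19 (SE, limma adjusted P = 0.795), with −0.18 ± 0.19 in Spar and −0.37 ± 0.20 in Scer (SD, n = 3 each). It was 0.13 ± 0.17 for *HTB1* and −0.07 ± 0.21 for *HHO1* (SE), and lay between 0.0018 and 0.10 for the other 7 members. For *HHT2* it was 0.02 ± 0.13 (SE). At 0 min the differences lay between −0.14 for *HHF1* and 0.12 for *HTA1*. Without the Scer 0 min replicate 2 they lay between −0.12 for *HHF1* and 0.10 for *HTA1*, with the sign turned in *HTB1* (0.03 without it, −0.08 with it), *HHT2* and *HHO1*, and no member was called. The largest difference in response was that of *HHF1*, at 0.24 ± 0.21 (SE, adjusted P = 0.717), with 0.13 in Spar and −0.10 in Scer. By limma 0 of 10 members were called, and 0 had an unadjusted P under 0.05, at 15 min (0.0491% of all genes called), at 0 min (0%) or for the response (0%).

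The chimeras divide *FZF1* into its 5′ noncoding and coding regions. The effect of the noncoding region over both times, that of the *S. paradoxus* region minus that of *S. cerevisiae*, lay between −0.06 for *HHF2* and 0.09 for *HTA1* (0 of 10 members and 0% of all genes called). The effect of the coding region lay between −0.07 for *HHO1* and 0.07 for *HTA1* (0 of 10 members called, beside 0.0491% of all genes). On Cy3 arrays alone it was 0.12 to 0.18 in *HTA1*, *HTB1*, *HTA2*, *HHT1*, *HHF1* and *HHT2*. There these members had unadjusted limma P under 0.05, and none passed after adjustment (smallest 0.29, for *HTA1*). In the fit of all arrays the combination of the regions, full length minus chimeric alleles, lay between −0.04 for *HHO1* and 0.20 for *HTB1*. It was 0.20 ± 0.09 for *HTB1*, 0.17 ± 0.07 for *HHF1* and 0.16 ± 0.08 for *HHF2* (SE). These were the 3 members with unadjusted limma P under 0.05 (0.0312, 0.0321 and 0.0477), where 590 of the 4071 genes tested were under that limit. After adjustment 0 of 10 members passed (0.315, 0.315 and 0.344), beside 0.0246% of all genes. PC 15 min replicate 1 was the lowest array for each of these 3 genes, and also for *HHT1*, *HTA2* and *HTZ1*. Effects of the regions that varied by time were called in 0 of 10 members and 0% of all genes.

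Genes that make, place or mark histones were set beside them in lists chosen with results of these data known. Adjusted P values are those of the limma fit over all genes, and *HST3*, the gene of a histone deacetylase, stands both among the acetylation and among the G2 and M phase genes. The counts below stand beside the 79.1% of all genes called, 39.6% lower and 39.5% higher. Of 13 regulators of histone transcription, 9 fell, 1 rose and 3 did not pass, with a median of −0.36. The largest falls were those of *ASF1* (−1.18 ± 0.06), a histone chaperone that works with the HIR complex, and *HIR2* (−0.96 ± 0.05), a HIR subunit. *RTT106*, which acts in the same repression (−0.45 ± 0.06), had the smallest P for allele of the list (adjusted P = 0.982). Of 15 chaperone and assembly genes, 11 fell, 1 rose and 3 did not pass, with a median of −0.34. Among those that fell were *HIF1*, of the nuclear Hat1 complex (−0.97 ± 0.10), and *RLF2*, a subunit of chromatin assembly factor 1 (−0.86 ± 0.07, SE), which also had the smallest P for allele of the list (adjusted P = 0.9996). Of 12 genes of the Swr1 complex, which deposits the *HTZ1* product, 3 rose, 2 fell and 7 did not pass, with a median of 0.02, and its catalytic gene *SWR1*, which had the smallest P for allele (adjusted P = 0.972), gave 0.0084 ± 0.05. The largest responses were those of *RVB1* (−0.70 ± 0.05), a helicase shared with other complexes, and *VPS71* (0.57 ± 0.14, SE).

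Of 20 genes for histone acetylation and methylation, 12 fell, 5 rose and 3 did not pass, with a median of −0.25, where 79.1% of all genes were called. Those that fell included *SIR2*, a histone deacetylase of silent chromatin (−1.65 ± 0.07), and *SAS2*, an H4 acetyltransferase (−1.31 ± 0.05). *SET2*, the H3 lysine methyltransferase of transcribed genes (−0.49 ± 0.06), had the smallest P for allele in the list (adjusted P = 0.569). No gene of any of these lists was called for allele.

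Lists of cell cycle genes were counted in the same way. All 30 DNA replication and G1/S genes fell, with a median of −0.87, beside a median of −0.15 for the 8 core histone genes. Among them were *RNR1*, the large subunit of ribonucleotide reductase (−2.82 ± 0.10), and *POL30*, the replication clamp (−2.27 ± 0.08), and *POL1*, the DNA polymerase alpha catalytic subunit (−1.43 ± 0.05), had the smallest P for allele of the list (adjusted P = 0.569). Of 11 G2 and M phase genes 10 fell and 1 did not pass, with a median of −0.63. Both the mitotic cyclin gene *CLB2* (−1.33 ± 0.06) and the polo kinase gene *CDC5* (−1.07 ± 0.07) fell, and *CLB1*, another mitotic cyclin gene (−0.87 ± 0.08), had the smallest P for allele (adjusted P = 0.512). Of 12 M/G1 genes 8 fell, 2 rose and 2 did not pass, with a median of −0.18. *SCW11*, a daughter cell wall gene (−0.86 ± 0.09), the G1 cyclin gene *CLN3* (−0.72 ± 0.13) and *DSE4*, another daughter cell gene (−0.16 ± 0.06, SE), fell, and *DSE4* had the smallest P for allele (adjusted P = 0.982). Cell cycle position was not measured, and its part in the histone values was not tested.

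**Figure D4:**
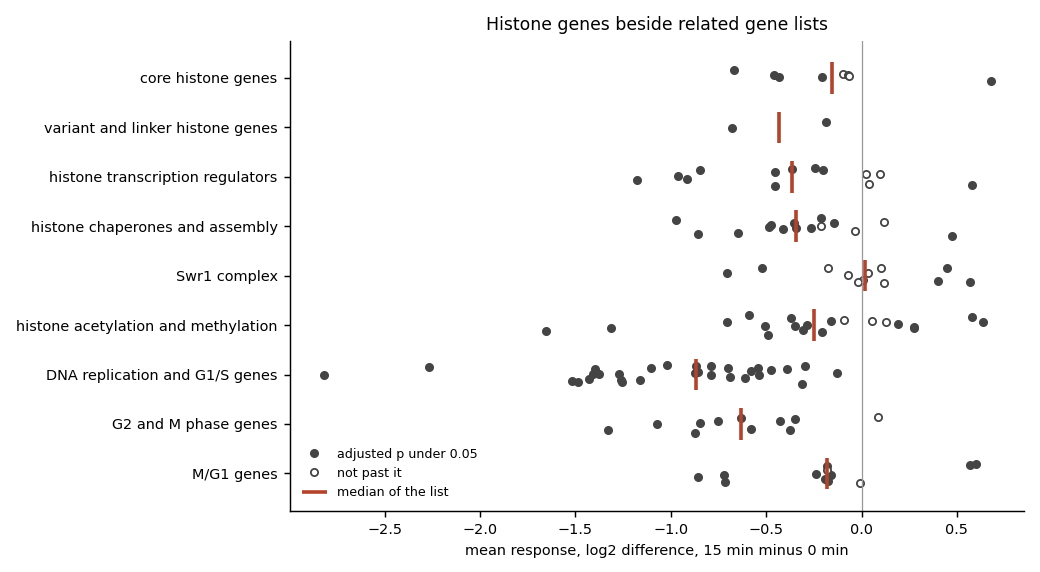
Mean response of each gene (x axis, log2 difference of 15 min minus 0 min) in the histone lists and in related lists. Filled points passed adjusted P under 0.05, open points did not, and red lines are medians. All 30 DNA replication and G1/S genes lie below 0, with a median of −0.87, where the core histone genes spread from −0.67 for HTA1 to 0.68 for HHT2.

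The genes whose profiles were most like those of the histone genes were taken by Pearson's r over the 24 arrays, as a description. These arrays share the times, the dyes and the pool, and *HHO1* had the largest dye difference of the members. The mean of the 8 core genes joins *HHT2*, which rose, with genes that fell. For the mean of the 8 core genes they were *SSO2* (r = 0.886), *RPB11* (0.856), *RPS26A* (0.846), *MGM101* (0.846) and *SBH2* (0.844). For *HTZ1* they were *SSO1* (0.905), *RPL19A* (0.900) and *YRB1* (0.895). For *HHO1* they were *RPS6A* (0.981), *RPS9B* (0.974) and *SPT16* (0.974). No gene of the replication list was among them, but too few genes were taken for that absence to say anything about that list. The 3 genes nearest to *HHO1* had mean responses of −0.99, −1.17 and −0.41.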

How the data were processed

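The authors deposited log2 ratios of sample over a pool of all RNA from 24 two-colour Agilent yeast V2 arrays, median normalized, with dye swaps turned. Background correction and the probes' genome build are not given in the sources used here. The sample was in Cy5 on 8 arrays and in Cy3 on 16. Features were matched to symbols by position on the grid, a match that rests on the data: features of a gene then correlated at a median of 0.928, against −0.0057 under equal numbers. Features were averaged for each of 4073 genes, arrays were centred on their median gene, and limma 3.58.1 (R 4.3.3) was fitted to 8 group means of 4071 genes with at least 2 arrays in every group. Benjamini-Hochberg adjustment was applied in each contrast, with a limit of 0.05. Tested on simulated data for the mean response (4067 genes), the fit recovered 88% of changes of 0.5 and 98% of changes of 1, with 5.1% false calls. The simulated noise was independent between arrays, and 100 genes were changed at each size. No effect of dye or of a shared culture was built in, so these rates do not cover such effects. Exact tests of 3 against 3 arrays cannot go below P = 0.1, so none is given. Members, lists and tests were chosen with earlier results of these data known. Named genes were all members, in each list the 2 with the largest mean response and the 1 with the smallest P for allele, the genes nearest in profile, and FZF1, SSU1 and URA3. Alternatives covered dye, replicate block, scaling, weights, features, filters, thresholds, the study's model and left-out arrays. Intensities were not used here.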

Additional observations from a re-analysis of the deposited data

How the results depend on the processing

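The 7 members called for the mean response numbered 5 to 8 over all alternatives, and HTA1, HTB1, HHT1, HHT2 and HHO1 kept their calls and signs in each. HTZ1 was lost on the first feature alone (−0.16), without replicate number 1 (−0.17) or 2 (−0.20) and, with HTB2 (−0.17), on the 8 Cy5 arrays alone (−0.08), an alternative that was chosen after seeing the data and on which HTA2 stood at 0.0023, with its sign turned. HTA2 was gained on Cy3 arrays alone (−0.15).

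Same-numbered arrays of an allele correlated in their deviations from group means at over 0.1 in 8 of 12 pairs (−0.47 to 0.76), and 7 of 12 arrays at 15 min were nearest to the 0 min array of their own number, which for most also shares its dye. The methods sample each culture at both times, but the labels do not tie the numbers to cultures. All 3 pairs of PC were below 0 (−0.01, −0.24 and −0.47). There the Cy5 array is replicate 2 at 15 min and replicate 3 at 0 min, so its numbers may be crossed, which bears on the block and on the left-out replicate numbers. With the replicate block, 7 members were called for the mean response and 19 responses of single alleles, as without it. With the replicate block by culture they were 7 and 20, and with a dye term added to that block, an alternative added after seeing the data, 7 and 21. All 3 left the other counts at 0.

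Of the 40 responses of a member in an allele, 19 were called. This fell to 11 at an adjusted P under 0.01 and lay between 10 and 20 when arrays or a replicate number were left out. It was 21 with a dye term, and 23 with array weights and on Cy3 arrays alone. For an allele effect, the study's model on features called 3 members and every other alternative 0. For the 60 effects of the regions, 1 was called on Cy3 arrays alone (HTA1, full length minus chimeric, 0.15) and 2 by the study's model on features (HHF1 and HHF2, full length minus chimeric). No alternative called an allele by time effect or a difference between Spar and Scer.

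Differences of Spar minus Scer at 15 min, of which none passed the test, changed sign in several members. With quantile scaling HTB2 stood at −0.0081, HHT2 at −0.050 and HHO1 at 0.010, and on the second feature alone HTB2 stood at −0.027 and HTZ1 at −0.0094. Leaving out arrays or a replicate number gave −0.033 to 0.24 for HTA2, −0.054 to 0.10 for HTB2, −0.062 to 0.25 for HHT1, −5.08e-05 to 0.21 for HHF1, −0.093 to 0.19 for HHT2, −0.049 to 0.16 for HHF2, −0.076 to 0.15 for HTZ1 and −0.22 to 0.12 for HHO1. In the fit without a dye term such a difference had SEs of 0.09 to 0.21, with 3 arrays in a group. With a dye term the SEs were smaller, from 0.08 for HHO1 to 0.17 for HTB1, and again no member passed. Allele effects of this size were not detectable at such SEs, and neither fit shows their absence.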
